A study of Mus musculus with 16 samples.

Results

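The genes described here are 10 genes of the muscle nicotinic acetylcholine receptor and of the response of muscle to loss of its nerve, chosen by symbol: *Chrna1*, *Chrnb1*, *Chrnd*, *Chrne* and *Chrng* for the receptor subunits, *Musk* for the kinase that clusters them, and *Myog*, *Runx1*, *Ncam1* and *Gadd45a*, which are known for their rise after denervation. All 10 were found among the 55471 genes of the count table, and 9 of them were among the 14331 genes that passed a filter on low counts, with *Chrng* as the exception. Poly-A mRNA was sequenced from the skeletal muscle of 16 male mice of the *Npr1*tm1Gar line, which had been backcrossed to C57BL/6J, and which muscle was taken is not given by the labels. Of these, 10 are labelled heterozygous (*Npr1*+/-, with 1 allele of the gene for the receptor GCA disrupted in the germline) and 6 are labelled wildtype littermates (*Npr1*+/+). All 16 mice received a high-fat diet (HFD, 60% of energy from lipids) for 12 weeks, so no library comes from a lean, denervated or exercised mouse. Each library is labelled as a separate mouse, and the mice came from 4 cages, each holding both genotypes.

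The adult muscle receptor is a pentamer of 2 alpha1 subunits with beta1, delta and epsilon, and the gamma subunit takes the place of epsilon in fetal and denervated fibres. In innervated muscle, nuclei beneath the nerve terminal make most of the subunit mRNA, driven by agrin, LRP4 and MuSK, while electrical activity represses the same genes in the rest of the fibre. When the nerve is cut this repression ends, myogenin rises, and the alpha1, gamma and delta genes, *Musk*, *Ncam1*, *Runx1* and *Gadd45a* are switched on along the fibre.

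Between 15273472 and 59682677 fragments were counted per mouse, and 1 library (*Npr1*+/- replicate 5) held 59682677 whereas the next deepest of that label held 23819345. The myofibre markers summed to 82623 to 146950 CPM (counts relative to the TMM-scaled total of each library), whereas the list of 10 neuron and axon markers summed to 3.91 to 12.7 CPM. Of that list *Chat* and *Slc18a3* were at 0 in all 16 libraries, *Stmn2* (4.94 CPM), *Slc5a7* (1.15 CPM) and *Prph* (0.832 CPM, means over 16 mice) were counted in every library, and the other 5 had at most 5 counts in any library. *Npr1*, the targeted gene, had a median of 12.0 CPM (9.83 to 22.2, n = 10) with the label *Npr1*+/- and of 12.4 CPM (10.4 to 13.4, n = 6) with the label *Npr1*+/+. The fitted log2 fold change was 0.09 (standard error 0.199, 95% interval of the fold 0.794 to 1.43), so no difference in its mRNA between the labels was resolved. Each direction below is between libraries as labelled. Whether these counts read the disrupted part of the gene was not tested. Replicates 7, 6 and 5 labelled *Npr1*+/- stood apart, since their long transcripts were high relative to their short ones. For the index used, log2 CPM was first centred on the mean of each gene. It is the median of genes over 6000 bases minus the median of genes under 2000 bases in each library. The index was 0.98, 0.74 and 0.56 in these replicates, against -0.71 to 0.14 in the other 13 libraries. Leaving out all 3 of them, an alternative chosen after the data were seen, gave no member a passing genotype, cage or weight test, and the values that moved are given beside the results.

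*Chrnb1*, whose mRNA varied with that of *Chrne* and that of *Chrna1* between mice, these 2 partners, and *Chrng*, the fetal counterpart of *Chrne*, are shown with the sequence upstream of their start, because myogenin and its relatives act on these genes through E-boxes and the N-box is known from synapse-specific transcription of *Chrne*. RefSeq (GRCm38.p6) promoters were matched for 8 of the 10 members. Each sequence runs 5′ to 3′ on the strand of the gene and ends 1 base before the RefSeq start. Capitals mark E-boxes (CANNTG, of which CAGCTG is 1 form) and the N-box (CCGGAA), searched on both strands.
*Chrna1* (chr2:73580339-73580588, minus strand): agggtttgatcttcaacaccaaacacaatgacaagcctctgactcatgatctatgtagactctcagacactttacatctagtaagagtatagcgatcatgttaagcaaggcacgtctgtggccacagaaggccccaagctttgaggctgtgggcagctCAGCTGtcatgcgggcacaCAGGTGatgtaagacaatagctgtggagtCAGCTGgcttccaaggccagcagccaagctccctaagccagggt
*Chrnb1* (chr11:69795938-69796067, minus strand): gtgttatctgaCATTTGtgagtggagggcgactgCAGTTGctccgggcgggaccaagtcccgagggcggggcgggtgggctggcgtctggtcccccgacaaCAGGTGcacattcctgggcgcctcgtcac
*Chrne* (chr11:70619195-70619444, minus strand): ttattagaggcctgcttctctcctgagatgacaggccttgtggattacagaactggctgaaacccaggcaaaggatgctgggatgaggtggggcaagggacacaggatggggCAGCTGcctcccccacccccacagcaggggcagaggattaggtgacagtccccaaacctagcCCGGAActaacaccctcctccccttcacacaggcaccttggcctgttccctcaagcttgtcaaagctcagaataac
*Chrng* (chr1:87205561-87205810, plus strand): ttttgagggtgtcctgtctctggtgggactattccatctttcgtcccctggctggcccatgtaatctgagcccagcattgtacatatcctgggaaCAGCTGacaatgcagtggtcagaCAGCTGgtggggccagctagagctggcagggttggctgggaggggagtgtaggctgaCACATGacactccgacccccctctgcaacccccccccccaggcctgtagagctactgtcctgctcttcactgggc
The *Chrna1* window held 3 E-boxes, 2 of them CAGCTG, which began 92, 73 and 44 bases before the start. The *Chrng* window, which begins inside the gene as the count table draws it, likewise held 3, of which 2 were CAGCTG. The *Chrnb1* stretch, shortened to 130 bases because an exon of the neighbouring *Fgf11* lies further upstream, held 3 E-boxes and no CAGCTG. The *Chrne* window held a CAGCTG that began 138 bases and an N-box that began 76 bases before the start. Over 32817 promoter windows of 250 bases, 66.2% held an E-box, 13% held CAGCTG and 12% held CCGGAA, so most promoters hold an E-box.

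The adult subunit mRNAs were present in every mouse and the fetal one was near the limit of detection. Levels were compared between genes as TMM-normalized CPM per kilobase of the deposited gene length. *Chrnb1* stood highest at a mean level of 13.8 CPM per kb, close to *Gadd45a* at 11.9, and was the higher of the pair in 10 of 16 mice, so these neighbours were not separated beyond the spread between mice. *Chrne* followed at 6.01 CPM per kb and lay below *Gadd45a* in 16 of 16 mice. *Myog* and *Chrna1* came next at 2.22 and 2.20 CPM per kb, and *Myog* was the higher in 8 of 16 mice, so their order was not resolved either. *Musk* had a level of 1.59, *Chrnd* of 0.569, *Ncam1* of 0.264, *Runx1* of 0.115 and *Chrng* of 0.022 CPM per kb, and each step of this lower part of the order held in 15 or 16 of 16 mice. Although the receptor holds more alpha1 than beta1 protein, the *Chrnb1* level per kb was 6.42 ± 1.35 times that of *Chrna1* (SD, n = 16), and that of *Chrnd* was 26.7 ± 10.2% of *Chrna1* (SD, n = 16). Before division by length the means were 34.8 CPM for *Chrnb1* and 9.66 CPM for *Chrna1*. The deposited length need not be that of the transcript expressed, so ratios and order per kb depend on it. Protein was not measured in these libraries. The ratio of *Chrnb1* to *Chrne* was the steadiest of those computed, 2.30 ± 0.331 (SD, n = 16).

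**Figure D1:**
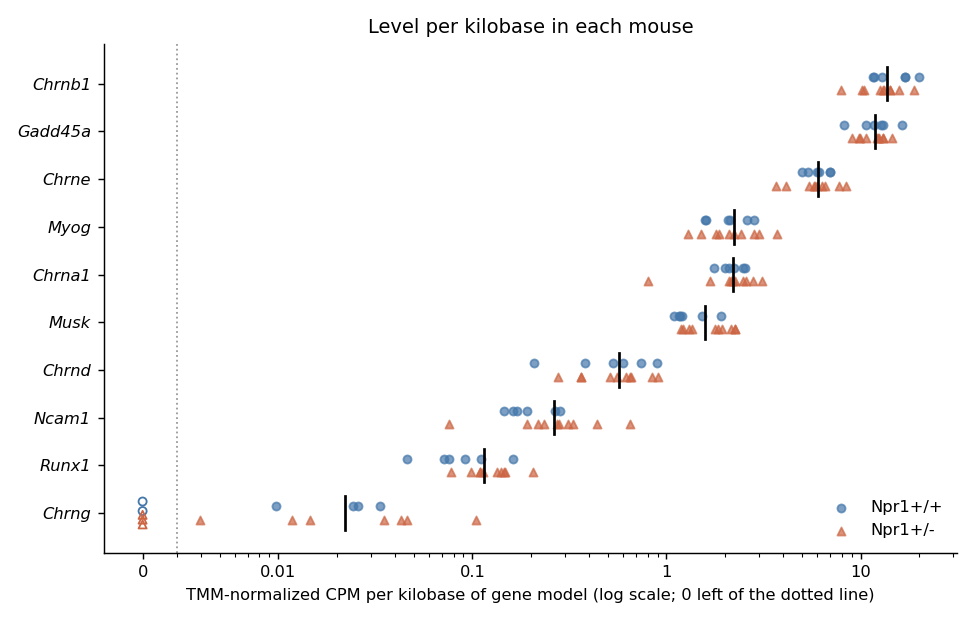
Level of each of the 10 genes in each mouse as TMM-normalized CPM per kilobase of gene model, on a log scale with libraries at 0 drawn left of the dotted line. Points are mice by genotype label and the vertical bar is the mean over 16 mice. *Chrnb1* and *Gadd45a* overlap at the top, and *Chrng* lies below every other member in all 16 mice.

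*Chrng*, on chr1:87204657-87212694 (ENSMUSG00000026253), encodes the gamma subunit of the fetal receptor. It had 0 to 9 counts per library, 29 in all, with 0 in 5 of the 16 libraries. The largest count, 9, was that of replicate 4 labelled *Npr1*+/-, where the other 9 libraries of that label had 0 to 4 counts, and the 6 labelled *Npr1*+/+ had 0 to 3. A count of 0 still allows 3 counts, or 0.0980 to 0.189 CPM in the 5 libraries at 0, so these values lie around the floor and no fold change is given. Per kb, *Chrng* was a median of 0.212% of *Chrne* and at most 1.80%. *Chrnd* ends 4586 bases upstream of *Chrng* on the same strand, and it was measured at 19 to 169 counts in the same libraries. These limits cover counting error only.

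*Chrna1*, on chr2:73563215-73580338 (ENSMUSG00000027107), encodes the subunit that carries the main acetylcholine contacts. Its level was 3.51 to 13.6 CPM (median 9.82, n = 10) in the libraries labelled *Npr1*+/- and 7.68 to 11.1 CPM (median 9.48, n = 6) in those labelled *Npr1*+/+. All 6 of the latter lay inside the range of the former, and the lowest value, 3.51, belonged to replicate 9 labelled *Npr1*+/-. The log2 fold change (*Npr1*+/- minus *Npr1*+/+) was 0.0054 with a standard error of 0.249, and the 95% interval of the fold was 0.697 to 1.45. In that replicate the markers of fibroblasts and tendon (1576 CPM) and of macrophages (135 CPM) had their highest sums of all 16 libraries, against 692 to 1241 and 32.4 to 108 CPM in the others, and the part of these cells in the result was not tested.

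*Chrnb1*, on chr11:69784036-69795943 (ENSMUSG00000041189), encodes the beta1 subunit, which links the receptor to the clustering protein rapsyn. It ranged over 20.1 to 47.6 CPM (median 33.4, n = 10) in the libraries labelled *Npr1*+/- and over 29.3 to 50.4 CPM (median 37.6, n = 6) in those labelled *Npr1*+/+. The groups overlapped over most of their range, and the fit gave -0.07 on the log2 scale (standard error 0.20). *Chrne*, on chr11:70614883-70619194 (ENSMUSG00000014609) and 819 kb from *Chrnb1*, encodes the adult epsilon subunit. It was at 6.17 to 14.2 CPM (median 9.96, n = 10) against 8.46 to 11.8 CPM (median 10.2, n = 6), and again every library labelled *Npr1*+/+ lay within the range of the other label. Its log2 fold change was -0.09 (standard error 0.202). The antisense gene *4930544D05Rik* overlaps *Chrne* and was counted at 13.8% of its sum, and whether the counting used strand is not stated, so a small share of reads could belong to either gene.

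*Chrnd*, on chr1:87190607-87200070 (ENSMUSG00000026251), encodes the delta subunit, which forms an acetylcholine site with alpha1. It was low, at 0.913 to 2.96 CPM (median 1.93, n = 10) in the libraries labelled *Npr1*+/- and 0.686 to 2.95 CPM (median 1.86, n = 6) in those labelled *Npr1*+/+. The ranges were nearly the same, while the fit with cage and body weight gave a log2 fold change of -0.46 (standard error 0.305, 95% interval of the fold 0.465 to 1.14). The value was 0.014 with cage alone, 0.064 on the label alone, 0.13 with body weight and a replicate block in place of cage, and -0.71 without replicates 5, 6 and 7 labelled *Npr1*+/-, so its direction depended on the covariates.

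*Musk*, on chr4:58285960-58374302 (ENSMUSG00000057280), encodes the receptor tyrosine kinase through which agrin and LRP4 gather receptors under the nerve. Its level was 4.51 to 8.55 CPM (median 6.86, n = 10) in the libraries labelled *Npr1*+/- and 4.15 to 7.25 CPM (median 4.49, n = 6) in those labelled *Npr1*+/+. The 4 lowest libraries labelled *Npr1*+/+ lay at 4.15 to 4.54 CPM, whereas the other 2 of that label, at 5.78 and 7.25 CPM, exceeded 4 and 6 of the 10 libraries labelled *Npr1*+/-. The log2 fold change was 0.45 (standard error 0.247), with a 95% interval of the fold from 0.948 to 1.96 and the smallest unadjusted p of the members (p = 0.0895, adjusted p = 1 with Benjamini-Hochberg over all genes by edgeR's quasi-likelihood test). It stayed between 0.33 and 0.56 when any 1 mouse was left out.

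*Myog*, on chr1:134289989-134292548 (ENSMUSG00000026459), encodes myogenin, the E-box factor that carries the denervation signal to the subunit genes. It ranged from 1.92 to 5.53 CPM (median 3.24, n = 10) against 2.36 to 4.25 CPM (median 3.13, n = 6) in the libraries labelled *Npr1*+/- and *Npr1*+/+. The 6 libraries labelled *Npr1*+/+ lay inside the other range, and the log2 fold change was 0.05 (standard error 0.260). Its lowest level, 1.92 CPM, was in the deepest library (replicate 5 labelled *Npr1*+/-) and its highest, 5.53 CPM, in replicate 8 of the same label, which held 16217777 counts. Replicates 1 and 2 of that label, with 15922198 and 15832624 counts, had 2.71 and 3.15 CPM, whereas over all 16 mice log2 *Myog* had r = -0.688 with the log2 library total (permutation p = 0.00196) and rho = -0.644 (permutation p = 0.00833). Adjusted over 126 relations of members with marker sums and totals, these p were 0.0494 and 0.0956, and r was -0.639 without the 2 libraries farthest from the median total. No other member passed with the total.

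*Runx1*, on chr16:92601466-92826149 (ENSMUSG00000022952), encodes a transcription factor known to limit wasting of denervated fibres. It was measured at 0.937 to 2.48 CPM (median 1.48, n = 10) in the libraries labelled *Npr1*+/- and at 0.554 to 1.95 CPM (median 1.01, n = 6) in those labelled *Npr1*+/+, on 15 to 57 counts per library. The ranges overlapped, with 3 libraries labelled *Npr1*+/+ (0.554, 0.855 and 0.915 CPM) below the lowest of the other label. The fitted difference of 0.42 on the log2 scale (standard error 0.302) moved between 0.15 without replicate 5 labelled *Npr1*+/+ and 0.89 without replicate 4 of that label. The *Runx1* locus also makes transcripts in blood and vessel cells, so its source within the muscle is not given by these libraries.

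*Ncam1*, on chr9:49502136-49798925 (ENSMUSG00000039542), encodes a cell adhesion molecule that is kept at the synapse of innervated fibres and spreads along denervated ones, and that satellite cells and Schwann cells also make. It had the widest spread of the tested members, from 0.655 to 5.64 CPM (median 2.40, n = 10) in the libraries labelled *Npr1*+/- and from 1.26 to 2.47 CPM (median 1.56, n = 6) in those labelled *Npr1*+/+. Both the lowest and the highest library were labelled *Npr1*+/-, and the fitted log2 fold change was 0.03 (standard error 0.325). It was 0.59 on the label alone and 0.58 with cage only, 0.32 with a replicate block in place of cage, and -0.057 without replicates 5, 6 and 7 labelled *Npr1*+/-, and it passed under none of these. The highest value belonged to replicate 7, where the satellite cell (129 CPM), endothelial (560 CPM), myofibre (146950 CPM) and postsynaptic sums were also the highest. In replicate 6, the satellite cell sum was 124 CPM and *Ncam1* was 2.44 CPM. Across the 16 mice *Ncam1* passed with the myofibre sum (r = 0.786, permutation adjusted p = 0.00798 over 126 relations of members with marker sums and library totals, rho = 0.729, adjusted p = 0.0627, and r = 0.681 without the 2 libraries farthest from the median sum). It also passed with the postsynaptic sum (r = 0.777, permutation adjusted p = 0.00798, rho = 0.856, adjusted p = 0.0063, and r = 0.792 without 2 libraries). With the satellite cell sum r was 0.691 (permutation adjusted p = 0.0508, rho = 0.582, adjusted p = 0.117, and r = 0.637 without 2 libraries), which did not pass. None of these lists contains *Ncam1*, and the part of these cells in the *Ncam1* level was not tested. In these bulk libraries, fewer cells of a type and less RNA per cell cannot be told apart.

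*Gadd45a*, on chr6:67035096-67037406 (ENSMUSG00000036390), encodes a stress protein that loosens chromatin at atrophy genes in denervated muscle. It varied least, at 15.9 to 25.7 CPM (median 21.6, n = 10) in the libraries labelled *Npr1*+/- and 14.5 to 29.0 CPM (median 21.6, n = 6) in those labelled *Npr1*+/+. The lowest and highest libraries were both labelled *Npr1*+/+. The fitted log2 fold change of -0.23 (standard error 0.153) stayed below 0 under each of the 30 alternatives, between -0.27 and -0.051, without passing the test under any of them.

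**Figure D2:**
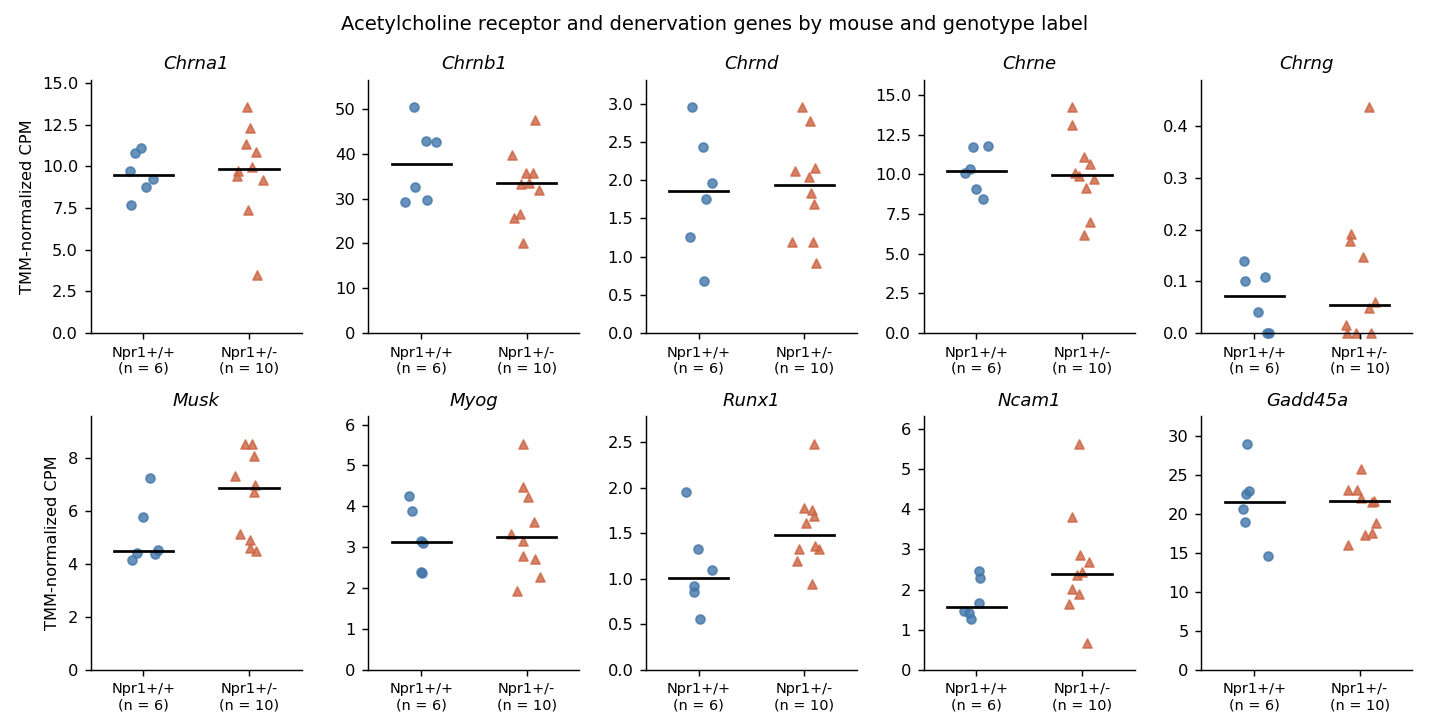
TMM-normalized CPM (vertical axes, from 0) of each of the 10 genes in the 6 mice labelled *Npr1*+/+ (circles) and the 10 labelled *Npr1*+/- (triangles). Points are single mice and the line is the median. The groups overlap for every gene, and the median of *Musk* is 6.86 CPM in *Npr1*+/- against 4.49 CPM in *Npr1*+/+.

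Taking the 9 tested members as a list, 5 had a log2 fold change above 0 and 4 below 0, with a median of 0.0054, beside 48.4% above 0 and a median of -0.006 over all 14331 genes. None passed an adjusted p of 0.05, as was true of all genes tested (0%), and 0 of the 9 had an unadjusted p under 0.05, a level reached by 1.05% of all genes (0.544% higher and 0.509% lower with the label *Npr1*+/-) by the quasi-likelihood test of edgeR. Over fits with 1 mouse left out, the smallest unadjusted p by that test was 0.0392 for *Chrnd*, 0.0410 for *Musk* and 0.0313 for *Runx1*. The other members stayed at or above 0.0761, and none passed after adjustment. With DESeq2 and limma-voom no member passed, although DESeq2 gave 6 genes of the table. The intervals were wide. They allow *Musk* in the libraries labelled *Npr1*+/- to be up to 1.96 times and *Runx1* up to 2.08 times the level in those labelled *Npr1*+/+, and *Chrnd* down to 0.465 times. In simulated data with these libraries, a log2 change of 1 between the labels was called in 60 of 100 genes. Those genes were drawn at all expression levels and many others were changed at once, which eases the adjusted threshold. The real table had no passing gene by label, so that share does not give the power for these members. Changes of that size or smaller could be missed.

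**Figure D3:**
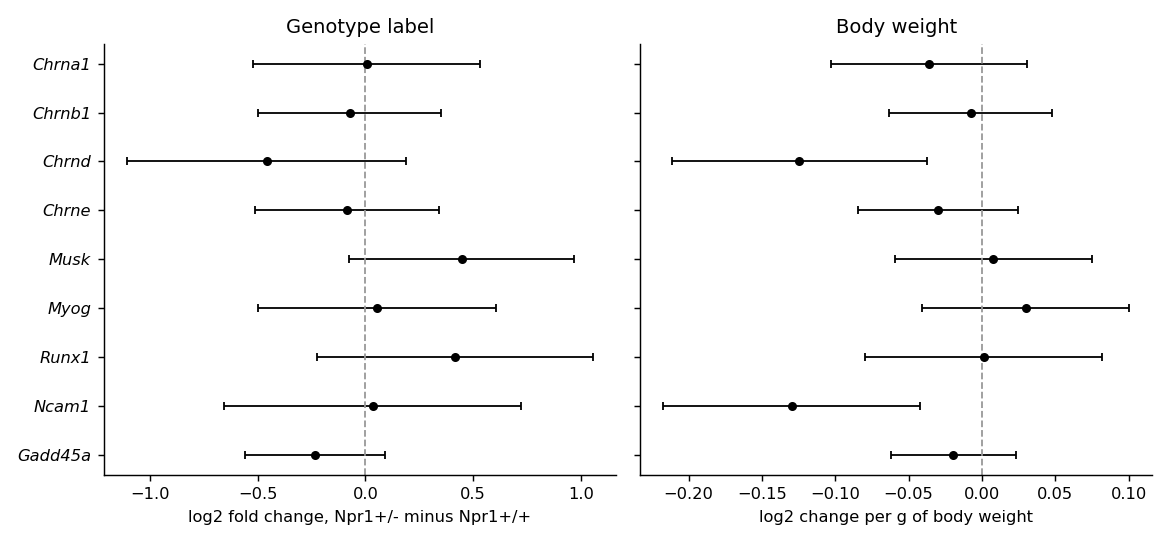
Fitted log2 fold change between the genotype labels (left) and log2 change per g of body weight (right) of the 9 tested genes, with 95% intervals from edgeR's quasi-likelihood fit. Every interval on the left includes 0, and on the right those of *Chrnd* (-0.211 to -0.0377) and *Ncam1* (-0.217 to -0.0422) do not.

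Genes that work with these members gave no calls by label either. Of 34 genes of the postsynaptic apparatus, 32 were tested, 22 with a log2 fold change above 0 and 10 below, with a median of 0.07, and 0 had an unadjusted p under 0.05 (1.05% of all genes). The smallest p belonged to *Sirpa*, which encodes a signal regulatory protein shed at the synapse (0.29 on the log2 scale, p = 0.119 by edgeR's test), followed by *Lrp4*, the agrin receptor (0.48, p = 0.158 by the same test). *Erbb3*, a neuregulin receptor that Schwann cells also make, had 0.36, and *Plec*, a cytoskeletal linker, had 0.58. The sum of the list lay at 1737 to 4132 CPM (median 2115) in the libraries labelled *Npr1*+/- and at 1745 to 2026 CPM (median 1872) in those labelled *Npr1*+/+. Its highest libraries were replicates 7 (4132 CPM), 6 (3369 CPM) and 5 (2822 CPM) labelled *Npr1*+/-, which also ranked highest by the long-transcript index, and the part of this in the sums was not tested.

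Of 29 genes of the denervation and activity response, 25 were tested, 12 above 0 and 13 below, with a median log2 fold change of -0.0045, and again 0 had an unadjusted p under 0.05. The genes with the smallest p were *Actc1*, the cardiac actin of immature fibres (-0.51, p = 0.0742 by edgeR's test), and *Sik1*, a kinase that acts on class II histone deacetylases (0.67, p = 0.0780 by the same test). The relatives of *Gadd45a* went apart, with *Gadd45g* at 0.63 and *Gadd45b* at -0.28 on the log2 scale, and neither passed. Of the 11 nicotinic subunits of other receptors, 3 were tested, *Chrna2*, *Chrna10* and *Chrna4*, with mean levels of 5.98, 4.87 and 0.518 CPM and log2 fold changes of 0.15, 0.075 and 0.12. *Chrna3*, *Chrna6*, *Chrnb3* and *Chrnb4*, subunits of neuronal receptors, were at 0 in every library.

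Cage did not separate the members. None of the 9 had an unadjusted p under 0.05 for cage, beside 7.36% of all genes, and 0.0279% of all genes passed the adjusted threshold. The smallest p was that of *Gadd45a* (p = 0.0655, adjusted p = 0.656 by edgeR's quasi-likelihood test). Its cage means ran from 16.9 ± 2.22 CPM (SD, n = 3, cage 677) to 23.6 ± 3.91 CPM (SD, n = 5, cage 678). Its ranges in these cages, 14.5 to 18.9 and 18.8 to 29.0 CPM, just overlapped. In the denervation and activity list, 7 of 25 genes had an unadjusted p under 0.05 for cage. Of these, *Cdkn1a*, which encodes the cell cycle inhibitor p21, passed after adjustment (p = 1.4e-05, adjusted p = 0.0491 by edgeR's test). This call held in 11 of 27 alternatives, whose adjusted p ran from 1.4e-08 with DESeq2 to 0.263 without replicate 4 labelled *Npr1*+/-, and was lost with scaling by library size only (adjusted p = 0.0843). It was followed by *Gadd45g* (p = 0.00135, adjusted p = 0.463 by the same test). In the postsynaptic list it was 6 of 32 genes, with *Scn4a*, the muscle sodium channel (p = 0.0319), and *Agrn* (p = 0.0322) as the smallest by edgeR's test, both with an adjusted p of 0.656.

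Body weight, taken as the second covariate, ranged from 36.5 to 48.1 g in mice labelled *Npr1*+/- (43.5 ± 3.79 g, SD, n = 10) and from 40.5 to 54 g in those labelled *Npr1*+/+ (47.4 ± 4.69 g, SD, n = 6). *Chrnd* and *Ncam1* had the steepest slopes on weight, both downward. For *Chrnd* the lightest mouse, of 36.5 g, had 2.96 CPM and the next, of 39.4 g, had 2.78 CPM, while the heaviest, of 54 g, had 1.26 CPM. Against this, replicate 5 labelled *Npr1*+/+ weighed 47.9 g and had 2.95 CPM. Replicates 2 and 9 labelled *Npr1*+/- both weighed 43.6 g and had 2.12 and 0.913 CPM, so mice of the same weight could differ. The slope was -0.125 log2 units per g (standard error 0.041), with p = 0.00776 and an adjusted p of 0.245 by edgeR's quasi-likelihood test.

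For *Ncam1* the same light mice had 5.64 and 3.81 CPM and the heaviest had 1.26 CPM. The lowest, 0.655 CPM on 11 counts, was replicate 8 labelled *Npr1*+/-, at 47.7 g. Its slope was -0.130 log2 units per g (standard error 0.0413, p = 0.00625, adjusted p = 0.245 by the same test). These were 2 of the 9 members with an unadjusted p under 0.05, both lower with weight, where 12.3% of all genes were lower with weight at that level and 17.1% moved in either direction, and no gene in the table passed after adjustment (0%). Without replicate 3 labelled *Npr1*+/-, a mouse of 40.1 g, both passed (*Chrnd* -0.155 per g, adjusted p = 0.0313, and *Ncam1* -0.173 per g, adjusted p = 0.0139 by edgeR's test). In that fit, however, 22.1% of all genes passed and 13.7% were lower with weight, so the call moved with the whole table. The adjusted p over the other mice left out 1 at a time was 0.166 to 0.657. With a replicate block in place of cage the slopes were -0.0338 for *Chrnd* (p = 0.409) and -0.0562 for *Ncam1* (p = 0.190), both unadjusted and by edgeR's test. That fit leaves few degrees of freedom, and mice whose replicate number occurs under 1 label only carry no information in it. Without replicates 6 and 7 labelled *Npr1*+/- the slope of *Ncam1* was -0.0930 (p = 0.0633 by edgeR's test). Without replicates 5, 6 and 7 it was -0.0726 (p = 0.136), with *Chrnd* at -0.0986 (p = 0.0421) in the same edgeR fit.

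The remaining slopes were smaller than their intervals. *Chrna1* had -0.0362, *Chrne* -0.0300, *Gadd45a* -0.0195 and *Chrnb1* -0.00775 log2 units per g, whereas *Myog* (0.0297), *Musk* (0.00774) and *Runx1* (0.00108) were above 0. Thus 3 of 9 slopes were above 0, beside 47.3% of all genes, and the median slope was -0.0195 beside -0.0033. In the postsynaptic list 10 of 32 genes had an unadjusted p under 0.05, beside 17.1% of all genes, among them *Colq* and *Ache*, which anchor and make the synaptic cholinesterase, and 7 of 32 slopes were above 0. In the denervation and activity list it was 7 of 25 genes, with 9 slopes above 0. Some cell type markers moved with weight at that level as well, with 6 of 9 satellite cell genes (5 of 9 slopes above 0), 3 of 5 endothelial genes (0 above 0), 3 of 9 myofibre genes (2 above 0) and 2 of 5 macrophage genes (5 above 0). It was 2 of 3 neuron and axon genes (3 above 0), 2 of 7 fibroblast and tendon genes (4 above 0) and 2 of 7 slow fibre genes (1 above 0). Schwann cell (1 of 12), adipocyte (0 of 5) and B cell genes (0 of 1) were below the share of all genes. The part of these cells in the slopes was not tested. The lightest mouse was also the library with the highest long-transcript index, and a fit with that index gave -0.087 for *Chrnd* (p = 0.0401) and -0.111 for *Ncam1* (p = 0.0251), both unadjusted and by edgeR's test.

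**Figure D4:**
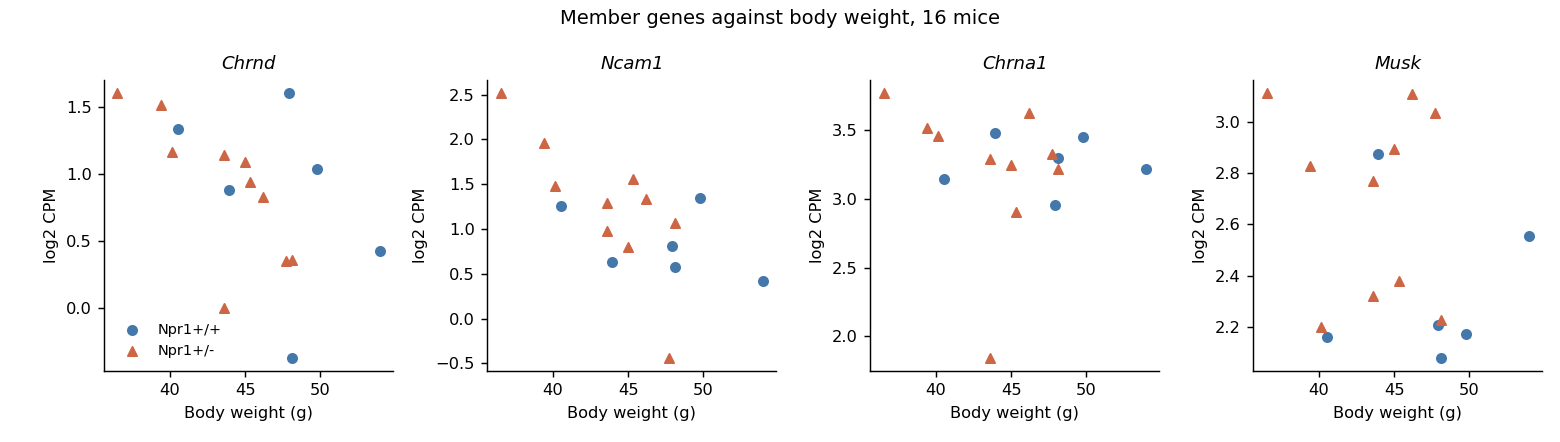
Log2 CPM of *Chrnd*, *Ncam1*, *Chrna1* and *Musk* (vertical axes) against body weight in g (horizontal axes) in the 16 mice, by genotype label. The lightest mouse, of 36.5 g, has the highest *Chrnd* and *Ncam1*, and the *Chrna1* value of 1.85 lies apart from the rest.

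The members were then compared with each other across the 16 mice, over 36 pairs. *Chrnb1* and *Chrne* had the closest relation, with Pearson's r = 0.805 (permutation p = 0.00024, adjusted p = 0.00504) and Spearman's rho = 0.835 (permutation p = 9e-05, adjusted p = 0.00324). Without the 2 mice farthest from the median of *Chrnb1*, r was 0.765 (adjusted p = 0.032), and after removal of label, cage and body weight it was 0.880 (adjusted p = 0.00072). *Chrna1* and *Chrnb1* had r = 0.777 (permutation p = 0.00028, adjusted p = 0.00504) and rho = 0.776 (permutation p = 0.00069, adjusted p = 0.0124). Without both replicates 9 and 7 labelled *Npr1*+/-, r was 0.689 and did not pass (adjusted p = 0.111), while the value after removal of label, cage and weight was 0.789 (adjusted p = 0.00279). *Chrna1* and *Chrne* had r = 0.662 (permutation p = 0.0069, adjusted p = 0.0709) and rho = 0.732 (permutation p = 0.00182, adjusted p = 0.0218), and r was 0.484 without the same 2 mice, so of these the rank test alone passed. With scaling by library size only, r was 0.765 for this pair and passed (permutation adjusted p = 0.00792), as did *Chrna1* and *Chrnb1* (0.840) and *Chrnb1* and *Chrne* (0.869, permutation adjusted p = 0.00108 for both). A cage holds 3 to 5 mice, too few for a value within each, and the values with cage removed stand in for it. The permutations of such residuals shuffled the 16 values as if no covariate had been fitted. Their p are therefore too small, and whether those values would pass otherwise was not tested.

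*Chrnd* did not pass with any other subunit. Its r was 0.404 with *Chrna1*, 0.266 with *Chrne* and 0.0694 with *Chrnb1*, and the highest was 0.537 with *Ncam1* (permutation p = 0.0317, adjusted p = 0.228; rho = 0.535, adjusted p = 0.208). *Gadd45a* had r = -0.639 to *Chrnb1* (permutation p = 0.00788, adjusted p = 0.0709), -0.490 to *Chrna1* and -0.401 to *Chrne*, but 0.327 to *Chrnd*, and none of these passed. After removal of label, cage and weight, the values were -0.776 to *Chrnb1* (permutation adjusted p = 0.00279) and -0.823 to *Chrne* (permutation adjusted p = 0.00198). These p, and those of the other residuals below, are too small because the permutations ignored the covariates fitted. With scaling by library size only, r was -0.370 to *Chrnb1* and -0.243 to *Chrne*, and neither passed. *Myog* passed with no member, its highest r being 0.238 with *Chrna1* and its lowest -0.462 with *Ncam1* (permutation p = 0.0709, adjusted p = 0.365). With the long-transcript index removed beside label, cage and weight, an alternative chosen after the data were seen, *Chrna1* and *Myog* had 0.836 (permutation adjusted p = 0.00036) and *Chrnb1* and *Chrne* 0.823 (permutation adjusted p = 0.00096), while *Chrna1* and *Chrne* had 0.372. In the same residuals *Chrnb1* and *Myog* had 0.759 (permutation adjusted p = 0.00711), *Chrnd* and *Gadd45a* had 0.815 (permutation adjusted p = 0.00096), and *Gadd45a* had -0.641 to *Chrnb1* and -0.725 to *Chrne* (permutation adjusted p = 0.0396 and 0.00943). Without replicates 5, 6 and 7 labelled *Npr1*+/-, *Chrnb1* had 0.805 with *Chrne* and 0.752 with *Chrna1* (permutation adjusted p = 0.0144 for both). Over all 36 pairs, 25 had r above 0 and the median was 0.148.

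**Figure D5:**
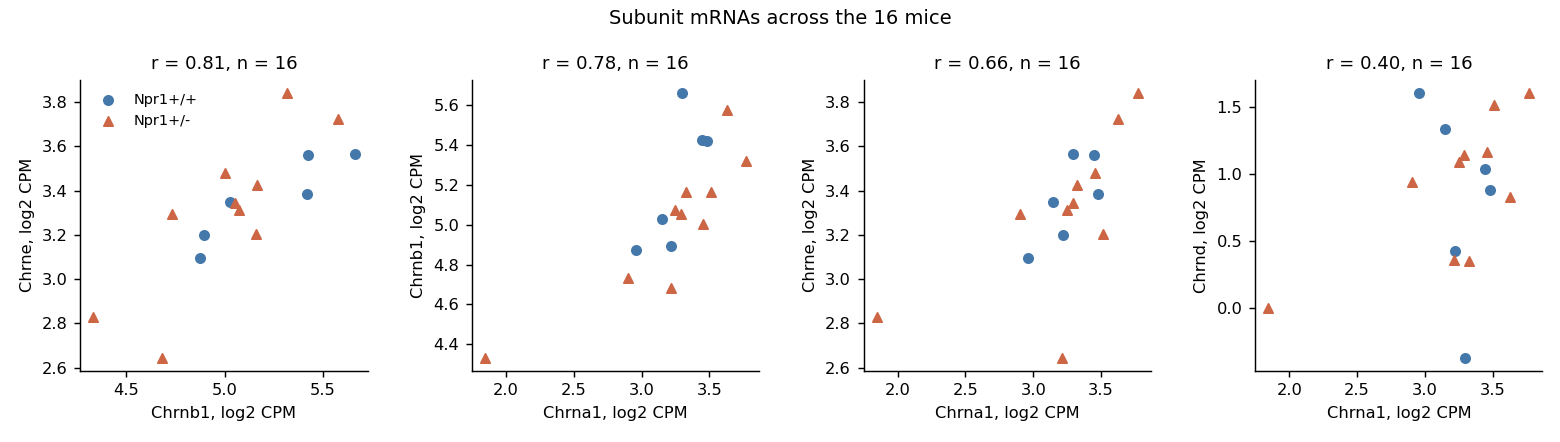
Log2 CPM of subunit pairs in the 16 mice, by genotype label, with Pearson's r above each panel. *Chrnb1* and *Chrne* (0.81) and *Chrna1* and *Chrnb1* (0.78) vary together, with replicate 9 labelled *Npr1*+/- lowest in *Chrna1* and *Chrnb1*, while *Chrna1* did not pass by r with *Chrne* (0.66) or *Chrnd* (0.40).

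Marker sums of other cell types moved with *Chrna1*, and those relations did not pass for *Chrnb1* or *Chrne*. With the macrophage sum, r was -0.771 for *Chrna1* (permutation adjusted p = 0.00798 over 126 relations, rho = -0.841, adjusted p = 0.00672, and r = -0.755 without the 2 libraries farthest from the median sum), -0.585 for *Chrnb1* and -0.665 for *Chrne*. With the fibroblast and tendon sum it was -0.729 for *Chrna1* (permutation adjusted p = 0.0265, rho = -0.656, which did not pass with an adjusted p of 0.0956, and r = -0.598 without 2 libraries), -0.588 for *Chrnb1* and -0.607 for *Chrne*. With the endothelial sum it was 0.652, 0.558 and 0.689 in the same order, and *Chrna1* passed there by rank (rho = 0.853, permutation adjusted p = 0.0063) but not by r (adjusted p = 0.0894). Of these 9 values by r, the macrophage and fibroblast values of *Chrna1* passed, and the adjusted p of the 6 values of *Chrnb1* and *Chrne* ran from 0.0552 to 0.155. Of the ranks, the macrophage and endothelial values of *Chrna1* passed, and the part of these cells in the co-variation was not tested.

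Many other genes were related to the subunit genes in the same way. Of all genes, 1% were nearer to *Chrnb1* than *Chrne* was. To *Chrna1*, 2.82% were nearer than *Chrnb1* was and 9.56% were nearer than *Chrne* was. *Chrnb1* had r above 0.5 with 15.9% of all tested genes, *Chrne* with 21.0% and *Chrna1* with 23.7%. By contrast *Myog* had r above 0.5 with 1.40% and *Runx1* with 1.16% of genes. The genes nearest to each member over the 16 mice were *Stk38l* (r = 0.940), *Golga5* and *Hars* for *Chrna1*, *Gfm1* (r = 0.932), *Gtf2f1* and *Alas1* for *Chrnb1*, and *Ctnnd1* (r = 0.914), *Ctr9* and *Cpe* for *Chrne*. *Chrnd* was nearest to *Pigt* (r = 0.908), *Rpa1* and *Ift122*, *Ncam1* to *Papss2* (r = 0.851) and *Nptxr*, and *Gadd45a* to *Akr7a5* (r = 0.916), *Flot1* and *Borcs5*. For *Musk* these were *Chst14* (r = 0.827), *Gm28187* and *Cdyl2*, for *Myog* *Scin* (r = 0.802), *Hdhd3* and *St6galnac4*, and for *Runx1* *Abcg1* (r = 0.735), *4933440N22Rik* and *Gm46565*. No member of the list was among the nearest genes of another, and these genes are named as the highest of 14331 values without a test.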

How the data were processed

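Skeletal muscle mRNA of 16 mice was sequenced as paired-end reads of 52 bases, with a Tecan kit per the labels and a TruSeq Stranded kit per the methods. The authors mapped reads to GRCm38 with STAR 2.7.2b, counted fragments with both ends aligned on GENCODE M24 genes (featureCounts 1.6.4 per the labels) and deposited raw counts per gene without normalization, together with each gene's length. Whether counting used strand is not given in the sources used here. Each library carries its own replicate number, cage and body weight, and p-values measure the spread between these libraries.

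Of 55471 genes, 55144 were paired with a symbol. Counts were analysed in R 4.3.3 with edgeR 4.0.16: filterByExpr by genotype label, TMM, and glmQLFit (robust = TRUE, legacy = TRUE) on label, cage and body weight. The study names edgeR, the robust fit and the correction for cage and body weight. The filter, the TMM scaling and the legacy setting were chosen here. Benjamini-Hochberg adjustment covered all 14331 genes, with a threshold of 0.05. Correlations used log2 CPM (prior count 2) with 100000 permutations, adjusted over 36 pairs of members or over 126 relations of members with log2 marker sums and totals. Residuals were permuted without allowing for the covariates fitted, which makes their p too small. The long-transcript index compared 4268 genes over 6000 bases with 2582 under 2000 bases. DESeq2 1.42.0 and limma 3.58.1 (voom) were alternatives. Steps were tested on simulated data for 14331 genes. The members and lists were chosen with earlier results of these data known. Named genes are the members, *Npr1*, for each of the postsynaptic and denervation lists the 4 genes with the smallest p by label and the 2 by cage, and the 3 genes nearest to each member, of which 1 is not reported here. Other names, such as *Colq*, *Ache* and the nicotinic subunits of other receptors, were chosen after their values were seen.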

Additional observations from a re-analysis of the deposited data

Results flagged for a closer look

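*Chrna1* in replicate 9 labelled *Npr1*+/- stood apart from the other 9 libraries of its label, at 1.85 log2 CPM (3.51 CPM on 73 counts). Its gap to the nearest library exceeded the critical value of Dixon's test at the 95% level, in 1 of the 18 groups of member values tested that way, and chance flags about 1 in 20 groups. The same library was also lowest in *Chrnb1* (20.1 CPM), and it had the lowest long-transcript index of the 16 (-0.71), whose part in these levels was not tested. Without it, the log2 fold change of *Chrna1* between the labels was 0.16 in place of 0.0054 and did not pass.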

How the results depend on the processing

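No member passed the genotype or cage test under any alternative, and *Musk* and *Runx1* (higher) and *Gadd45a* (lower) kept their sign by label under each of the 30. The count of genes passing by label (0 with edgeR, 151 at an unadjusted p under 0.05) was 8 without a filter on low counts, 6 with DESeq2, 2 with the long-transcript index as a covariate, 2 without replicates 6 and 7 and 1 without replicates 5, 6 and 7 labelled *Npr1*+/- (all 3 chosen after seeing the data) and 0 to 3 when 1 mouse was left out. That of cage (4) was 0 with scaling by library size only, 23 without a filter, 1 with at least 10 counts in every mouse, 86 with DESeq2, 1 with limma-voom, 8 with the index, 2 without replicates 5, 6 and 7, and 0 to 869 with 1 mouse left out (869 without replicate 3 labelled *Npr1*+/-). That of body weight (0) was 0 to 3158, also highest without that replicate. The adjusted p of the *Chrnd* and *Ncam1* slopes with DESeq2 was not given by the tool.

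The fold change by label reversed for *Chrnd* (0.064 on the label alone, 0.014 with cage only), *Chrne* (0.034) and *Myog* (-0.059) with cage only, and *Chrna1* (-0.066 with body weight only, -0.057 with limma-voom, -0.090 with the index), and for *Ncam1* without replicates 5, 6 and 7 (-0.057). With 1 mouse left out it ran from -0.065 to 0.16 for *Chrna1*, -0.18 to 0.032 for *Chrnb1*, -0.17 to 0.0014 for *Chrne*, -0.22 to 0.45 for *Myog*, -0.16 to 0.17 for *Ncam1* and, without reversing, -0.69 to -0.13 for *Chrnd*. The slope per g reversed for *Musk* (-0.0076) and *Runx1* (-0.012) with body weight only, for *Runx1* without replicates 6 and 7 (-0.00011) or 5, 6 and 7 (-0.0083), and for *Chrnb1* with library size only (0.0023), the index (0.018) and without replicates 6 and 7 (0.012) or 5, 6 and 7 (0.0073). With 1 mouse left out it ran from -0.027 to 0.033 for *Musk*, -0.024 to 0.041 for *Runx1* and -0.026 to 0.012 for *Chrnb1*. The causes were not tested.

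Of the pairs of members, 2 passed in the reported values, 4 after removal of label, cage and weight, 3 with scaling by library size only, 7 when the index was removed as well (chosen after seeing the data) and 1 without the 2 farthest mice, where *Chrna1* and *Chrnb1* had r = 0.689. The counts of 4 and 7 rest on permutations of residuals that ignored the covariates fitted, so their p are too small and fewer pairs may pass.

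Mice that share a replicate number across the labels are not the same animal, and their deviations from the group means had a mean correlation of 0.0779 over 6 pairs (0.0328 to 0.170), so the numbers do not pair them. A replicate block in place of cage gave 2 genes by label and 1 by weight, with reversed values of 0.13 for *Chrnd*, 0.016 for *Chrne* and a slope of -0.0026 for *Runx1*, and it ended the unadjusted calls of the *Chrnd* (-0.0338) and *Ncam1* (-0.0562) slopes. Mice whose number occurs under 1 label only carry no information in that fit, which leaves few degrees of freedom. A call lost there can therefore not be told apart from a loss of power. The 6 to 10 mice a label and the 0 to 9 counts of *Chrng* limit what could be detected.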
